A study of Homo sapiens with 4 samples.

Results

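The genes described here are 39 interferon-stimulated genes, chosen by name as members of the interferon response, of which 38 were measured among 19775 genes in all. Each gene was read from 1 probe set, a group of short probes for 1 transcript, namely the one with the highest mean intensity among the sets annotated to a single gene. STAT2 was not analysed here. Gene expression of Huh7 and Hep3B cells, both established human hepatocellular carcinoma (HCC) lines, was profiled with Affymetrix U133 Plus 2.0 microarrays. The design has 4 groups with 1 array each, namely Huh7 cells that received 3 μM arsenic trioxide (ATO) for 7 days, Huh7 negative control cells that received DMSO, and the same pair for Hep3B. The duration of the DMSO treatment is not given in the labels, and no group was given interferon as far as the labels and methods say. The study used the arrays to ask which genes and pathways low-dose ATO alters in both lines.

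The values are intensities on a linear scale after normalization by the authors, and the number of arrays limits their precision. A gene is called dim below when its mean over the 4 arrays lies under 17.3, the median of the probe set means. Of the 38 genes 14 were dim, and 24 were not. No group has a replicate, so no error can be given for a ratio of ATO over negative control within a line. Across both lines, limma was fitted to log2(intensity + 16) over all genes with terms for line and treatment, the residual having 1 degree of freedom. In such a whole-culture measurement, fewer cells of a kind and less RNA per cell cannot be told apart.

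Hepatocyte and hepatoma markers separated the arrays by line. On the negative control arrays, ALB (albumin) was at 155 in Huh7 and 12803 in Hep3B, AFP (α-fetoprotein) at 91.8 and 3566.5, GPC3 (glypican-3) at 29.3 and 3730, and TTR (transthyretin) at 48.1 and 1704. SERPINA1, at 12710 and 10091, and APOB, at 4109 and 5475, were bright in both lines. Low AFP and ALB go against what Huh7 is known for, so the line names below are those of the labels, and each comparison of lines rests on them. Markers of leukocytes, fibroblasts and endothelium were mostly dim, with 8 of 11 measured under 17.3 and PTPRC, the pan-leukocyte marker, at 6.15 to 8.87. LYZ (lysozyme), which was not dim, was at 411 and 176 on the negative control arrays of Huh7 and Hep3B and at 234 and 30.3 with ATO. The part of these cells or of the line labels in the results below was not tested.

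Interferons are secreted proteins that warn cells of viral infection. Type I and type III interferons act through receptor-bound JAK kinases on ISGF3, a complex of STAT proteins with IRF9, which binds the interferon-stimulated response element in the promoters of its target genes. Interferon-γ acts through STAT dimers on a different sequence, the gamma-activated site. The proteins made in response bind viral RNA, cut it, trap virus particles, mark proteins with the ubiquitin-like protein ISG15 and load viral peptides for display to T cells. Hepatocytes and hepatoma cells respond to interferon and are hosts of hepatitis B and C virus, for which interferon has long been a treatment.

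Most of these genes with a promoter sequence at hand had a match to the core of the response element. RefSeq promoters of build GRCh38.p14, from 250 bases before to 50 bases after each transcription start, were at hand for 31 of the 39 genes, in 41 windows. The core, GAAA, any 2 bases and GAAA again, read on both strands, occurred in at least 1 window of 23 of these 31 genes (74.2%), against 3.98% of the 15384 measured genes with a window. The gamma-activated core TTCNNNGAA, which reads the same on both strands in its fixed letters, occurred in 12 of the 31 (38.7%) against 8.97%. A match of these letters is a description of the sequence and not evidence of binding. The stretches below were chosen because their genes carry the results that follow, and capitals mark this core or its reverse complement, overlapping cores being written as 1 run. Each is written on the strand of its gene.
ISG15: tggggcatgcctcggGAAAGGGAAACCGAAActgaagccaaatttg
ISG20: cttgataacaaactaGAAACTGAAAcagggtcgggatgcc
TAP1: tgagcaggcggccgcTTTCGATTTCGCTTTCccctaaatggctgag
PARP9: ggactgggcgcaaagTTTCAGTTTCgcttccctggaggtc
PARP14: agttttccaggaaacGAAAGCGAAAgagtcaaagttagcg
BST2: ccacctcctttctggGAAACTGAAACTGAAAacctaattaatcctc
GBP1: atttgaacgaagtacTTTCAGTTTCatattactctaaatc
IFIT1: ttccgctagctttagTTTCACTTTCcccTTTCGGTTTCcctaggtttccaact
HERC5: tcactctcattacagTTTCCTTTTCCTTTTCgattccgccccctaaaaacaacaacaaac

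These stretches lie at chr1:1013369-1013414 on the plus strand for ISG15, chr15:88638932-88638971 (plus) for ISG20, chr6:32853808-32853853 (minus) for TAP1, chr3:122564317-122564356 (minus) for PARP9 and chr3:122680795-122680834 (plus) for PARP14. Those of BST2, at chr19:17405730-17405775 (minus), GBP1, at chr1:89065311-89065350 (minus), IFIT1, at chr10:89392492-89392544 (plus), and HERC5, at chr4:88456979-88457038 (plus), follow the same build. Their first bases lie 128 bases before the start for ISG15, 84 for ISG20, 149 for TAP1, 56 for PARP9, 44 for PARP14, 145 for BST2, 142 for GBP1, 131 for IFIT1 and 140 for HERC5. UBE2L6, IFI35, IRF1, IRF9, HERC6, OAS1 and XAF1 had windows without the core, and no window was at hand for GBP2, IRF7, USP18, OASL, OAS2, IFIT2, MX2 and TRIM22.

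Interferon-stimulated genes were higher with ATO mainly on the Hep3B arrays. In Hep3B, 15 of the 38 genes had a ratio above 1.5 and none was below 0.67, the thresholds of the study, where 5.04% of all 19775 genes were above and 4.02% below. Huh7 had 4 of 38 above 1.5 and none below 0.67, where 3.21% of all genes were above and 3.25% below. UBE2L6 and GBP1 were above 1.5 in both lines, as were 0.804% of all genes. The median log2 ratio of the 38 genes was 0.36 in Hep3B, against 0.04 for all genes, and 0.06 in Huh7, against 0.01. A larger ratio in Hep3B than in Huh7 was found for 30 of the 38 genes, and for 53.7% of all genes. At any size, 19 of the 38 were higher with ATO in both lines, as were 32.0% of all genes. On the same Hep3B arrays 4 of 7 hepatocyte and hepatoma markers were below 0.67, namely AFP at 0.462, APOA1 at 0.595, GPC3 at 0.643 and SERPINA1 at 0.663, with APOB at 0.735, ALB at 0.838 and TTR at 1.16. In Huh7 none of the 7 was below 0.67, and ALB had a ratio of 2.31. The part of these marker differences in the results was not tested. Whether the lines differ in their response could not be tested, since 1 array per group leaves no error for the difference.

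Low signals limit some of these ratios. Among the 24 genes that were not dim, 12 were above 1.5 in Hep3B and 2 in Huh7, where 6.58% and 3.87% of all genes that were not dim were. Where both Hep3B arrays were at or above 17.3, 10 of 19 genes had a ratio above 1.5, compared with 6.22% of the 12060 such genes on the arrays. These 10 were PARP14, TAP1, UBE2L6, ISG20, PARP9, OAS3, ISG15, IFI35, GBP2 and IRF9. The other 5, namely IFIT5, HERC6, SAMD9, MX1 and GBP1, had at least their negative control under that level. In Huh7 the 2 genes above 1.5 with both arrays at or above 17.3 were UBE2L6 and BST2, of 23 such genes, and OAS1 and GBP1 were under 17.3 on both arrays. No gene passed limma for ATO at an adjusted p under 0.05, among these 38 or among all genes (0.0%), and the smallest adjusted p of the 38 was 0.506. Before adjustment, 5 of the 38 (13.2%) had a limma p under 0.05, all higher with ATO, where 5.24% of all genes were higher and 4.3% lower. They were GBP1, UBE2L6, GBP2, BST2 and IRF1. By the methods' t-test, 1 of the 38 had such a p before adjustment and 0 after, and the share of all genes before adjustment was not counted.

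**Figure D1:**
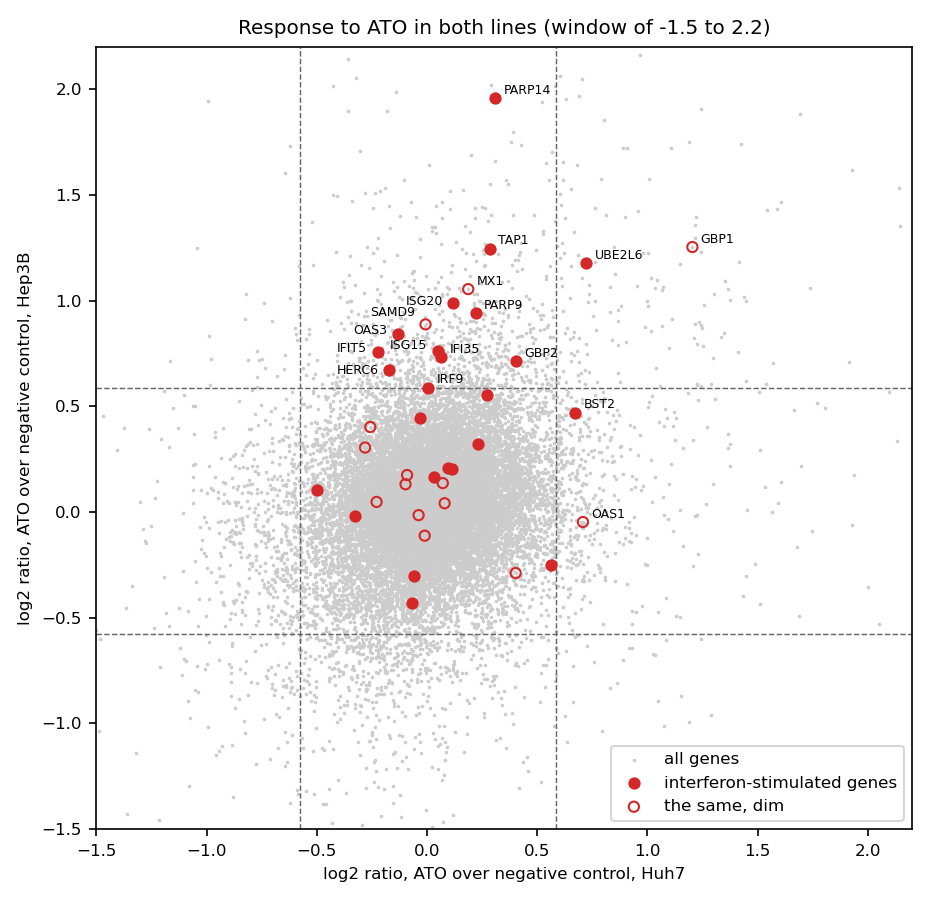
Each gene is placed by its log2 ratio (ATO over negative control), Huh7 on the x axis and Hep3B on the y axis. Grey points are those of the 19775 genes that fall within the window. Red points are the 24 interferon-stimulated genes that were not dim and open circles the 14 dim ones, and dashed lines mark ratios of 1.5 and 0.67. Most labelled genes lie above the upper horizontal line and near 0 on the x axis, and UBE2L6 and GBP1 are past 1.5 in both lines.

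Of the transcription factors that carry the interferon signal, IRF9 was past a threshold, in Hep3B, by the probe set used. IRF9, the DNA-binding subunit of ISGF3, had intensities of 118 in the Huh7 negative control and 119 with ATO, and of 68.4 and 103 in Hep3B. The ratio was 1.004 in Huh7 and 1.504 in Hep3B, just past the threshold. IRF1, a factor induced by interferon-γ, was at 40.9 and 49.5 in Huh7 and at 37.7 and 55.3 in Hep3B. Its ratios of 1.21 and 1.47 stayed under the threshold, while a second IRF1 probe set, at 29.8 and 29.5 in Huh7 and 28.1 and 44.9 in Hep3B, had ratios of 0.990 and 1.60, the latter above the threshold. Across both lines the log2 difference of IRF1 was 0.31 ± 0.09 (SE), with an adjusted p of 0.516 from limma. IRF7, which amplifies type I interferon production, was at 10.02 and 7.10 in Huh7 and at 41.9 and 45.1 in Hep3B. Both Hep3B values lay above both Huh7 values.

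The ISG15 system, which attaches ISG15 to other proteins, held the 1 gene that was not dim and was above 1.5 in both lines. UBE2L6, the conjugating enzyme of this system, was at 178 without and 293 with ATO in Huh7, and at 70.6 and 160 in Hep3B. Both ATO values lay above the control of their line, with ratios of 1.65 and 2.26, and the log2 difference across the lines was 0.85 ± 0.12 (SE), adjusted p 0.506 by limma. ISG15 itself was at 492 and 509 in Huh7, a ratio of 1.03, and at 210 and 356 in Hep3B, a ratio of 1.69. The ligase HERC5 had its larger ratio in Huh7, at 90.0 and 132.9 in Huh7, a ratio of 1.48 just under the threshold, and at 10.6 and 8.96 in Hep3B, both under 17.3, a ratio of 0.841. Its neighbor HERC6 was at 36.0 and 31.9 in Huh7 and at 4.74 and 7.55 in Hep3B, so its ratio of 1.59 in Hep3B rests on 2 low signals, and a second, dim probe set had a ratio of 0.925 there. USP18, the protease that removes ISG15 and damps receptor signaling, was at 40.4 and 43.8 in Huh7 and at 61.4 and 70.7 in Hep3B, ratios of 1.08 and 1.15.

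Genes whose products act on viral RNA or its making were divided. Of 12 such genes, 3 were above 1.5 in Hep3B and 1 in Huh7, where 5.04% and 3.21% of all genes were, and 4 were dim. The 1 in Huh7 was the dim OAS1, at 9.04 and 14.8. ISG20, an exonuclease that degrades RNA, was at 214 and 232 in Huh7 and at 66.9 and 132.8 in Hep3B, ratios of 1.09 and 1.99. Its second probe set gave 199 and 199 in Huh7 and 56.8 and 130 in Hep3B. OAS3, which makes the 2-5A messenger that turns on RNase L, was at 59.3 and 54.1 in Huh7 and at 33.2 and 59.7 in Hep3B, ratios of 0.912 and 1.80. With ATO the intensities of OAS3 in the 2 lines were thus close, whereas the Huh7 value was the higher without ATO. IFIT5, which binds RNA ends, was at 79.4 and 68.0 in Huh7 and at 8.90 and 15.0 in Hep3B, where its ratio of 1.69 is that of low signals. IFIT1, which blocks translation of viral RNA, was at 46.5 and 44.6 in Huh7 and at 13.7 and 11.1 in Hep3B, ratios of 0.960 and 0.811. Its partner IFIT3 had ratios of 0.955 and 0.743, and IFIT2 of 1.17 and 1.25. The sensor IFIH1 (MDA5) had ratios of 1.02 and 1.12, and OASL of 1.07 and 1.16. IFIT1 had a lower signal with ATO in Hep3B, within the thresholds, where ISG20 and OAS3 had higher ones. The probe sets of IFIT3 disagree, since the second, at 5.67 and 9.30 in Huh7 and 7.16 and 12.4 in Hep3B, had ratios of 1.64 and 1.73 at signals under 17.3. Other second probe sets under 17.3 on average gave 0.903 and 1.51 for OASL, 1.13 and 1.46 for OAS1, and 7.37 on both Hep3B arrays for OAS3.

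PARP14 and its partner PARP9 were above the threshold in Hep3B. PARP14, an ADP-ribosyltransferase, was at 20.9 and 25.9 in Huh7 and at 19.7 and 76.6 in Hep3B. Its level was alike on 3 arrays and stood out on the ATO array of Hep3B, with ratios of 1.24 and 3.89. A second, dim PARP14 probe set, at 4.71 and 4.46 in Huh7 and 4.54 and 4.37 in Hep3B, did not show this. With the probe sets of a gene averaged, the log2 ratio of PARP14 in Hep3B was 0.95 in place of 1.96, below the 1.25 of TAP1. PARP9 was at 45.8 and 53.4 in Huh7 and at 49.1 and 94.2 in Hep3B, ratios of 1.17 and 1.92, and its second probe set had 21.9 and 22.7 in Huh7 and 25.3 and 37.8 in Hep3B. The limma log2 difference of PARP14 was 0.78 ± 0.36 (SE), adjusted p 0.608.

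Of 4 antiviral GTPases, GBP2 alone was not dim. GBP2 was at 375 and 497 in Huh7 and at 24.3 and 39.8 in Hep3B, ratios of 1.32 and 1.64. Its second probe set that was not dim had a lower signal with ATO in Huh7, 118 without and 70.0 with ATO, and 7.15 and 7.67 in Hep3B, so the probe sets of GBP2 disagree in Huh7. GBP1, with ratios of 2.30 and 2.38, was dim and was read from the only probe set among the 38 that ends in _x_at, a type that can bind related transcripts. Its next brightest probe set gave ratios of 1.32 and 1.17, and GBP1 is therefore uncertain. MX1, which traps incoming viral particles, was at 8.08 and 9.19 in Huh7 and at 13.0 and 27.0 in Hep3B, the last being its one value above 17.3. MX2 was dim at 9.55 to 10.9.

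Of the remaining genes, TAP1, which pumps peptides into the endoplasmic reticulum for display on MHC class I, was at 92.8 and 113 in Huh7 and at 32.1 and 76.2 in Hep3B. Its ratios were 1.22 and 2.37, and its limma log2 difference was 0.59 ± 0.22 (SE), adjusted p 0.555. IFI35 was at 276 and 289 in Huh7 and at 88.9 and 148 in Hep3B, ratios of 1.05 and 1.66. BST2 (tetherin), which holds budding virus on the cell surface, was the gene with a larger ratio in Huh7 among those past the threshold in signals that were not dim. Its intensities were 29.4 and 46.7 in Huh7 and 28.0 and 38.8 in Hep3B, ratios of 1.59 and 1.39. IFI6, at 165 and 161 in Huh7 and 50.6 and 68.9 in Hep3B, and IFITM1, which hinders virus entry, at 42.1 and 33.6 in Huh7 and 16.2 and 15.95 in Hep3B, stayed within the thresholds. IFI27, IFI44L and RSAD2, which interferon typically induces strongly, were among the 14 dim genes. IFI27, IFI44, IFI44L, RSAD2, XAF1, EPSTI1, DDX60, TRIM22, OAS2 and MX2 did not exceed 10.9 on any array, SAMD9 ranged from 6.21 to 13.6, and the intensities of the 14 together ran from 3.69 to 27.0.

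**Figure D2:**
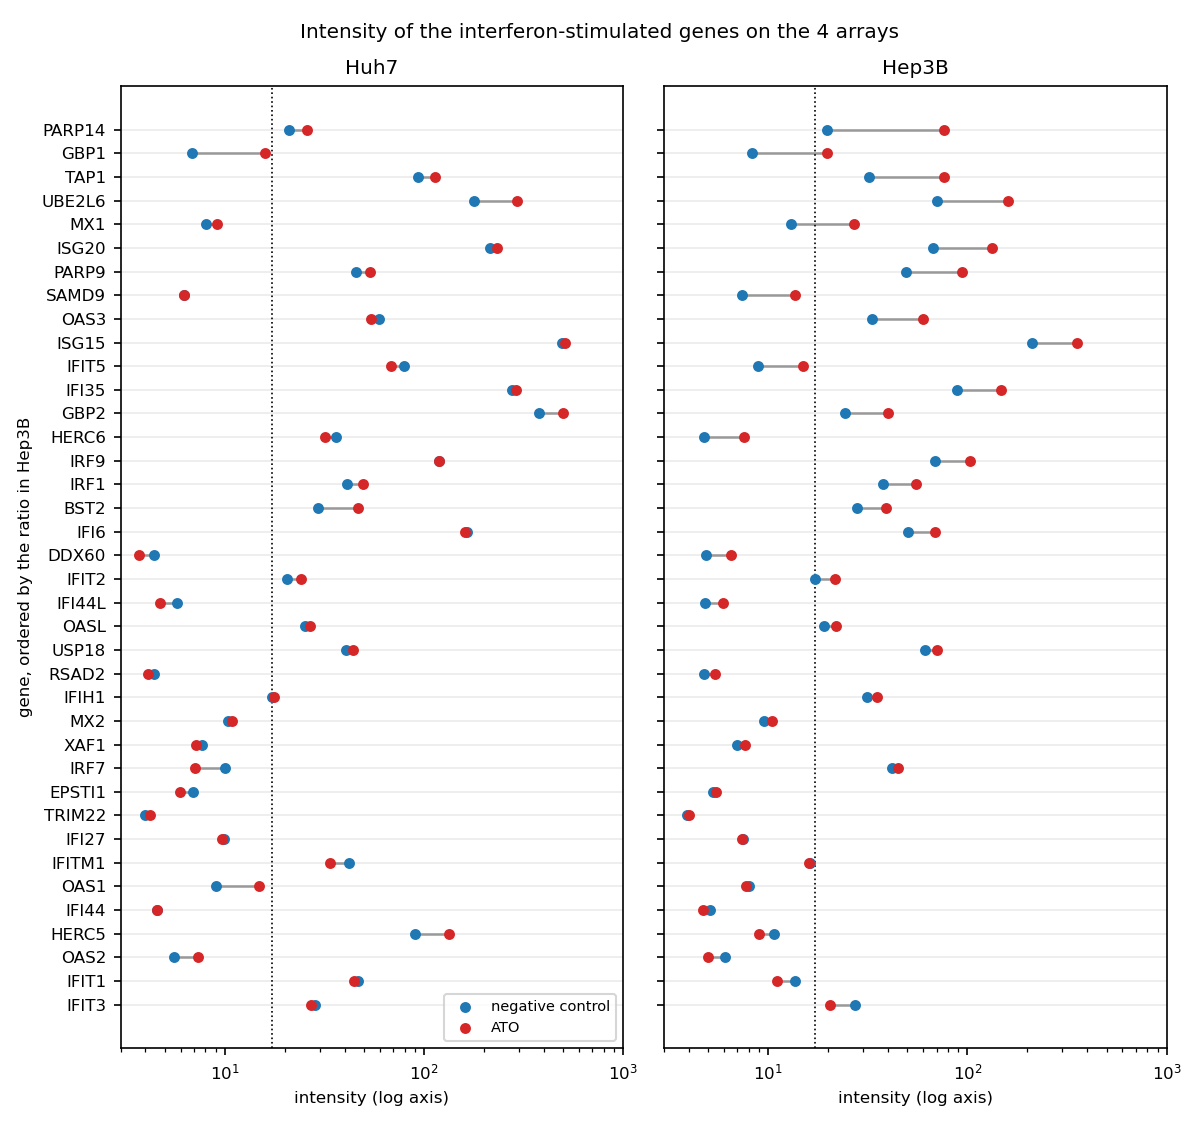
Intensity of the 38 genes (log axis) in Huh7 (left) and Hep3B (right), with 1 blue point for the negative control and 1 red point for the ATO array, ordered by the ratio in Hep3B. The dotted line marks 17.3, the median of all probe sets. The pairs in the upper part are apart in Hep3B and close together in Huh7 for ISG15, ISG20 and IFI35, whereas UBE2L6 and GBP1 are apart in both.

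Without ATO, many of these genes were brighter in Huh7 than in Hep3B. On the negative control arrays 12 of the 38 were over 2-fold higher in Huh7, where 9.23% of all genes were, and 1, IRF7, was over 2-fold higher in Hep3B, where 8.73% of all genes were. The median log2 ratio of Huh7 over Hep3B was 0.21 for the 38 genes and 0.04 for all genes. For the 24 that were not dim it was 1.03, against 0.03 for all genes that were not dim. Dimness was judged on the mean of all 4 arrays, so genes bright in a single line could pass. HERC5, HERC6, IFIT1, IFIT5 and IFITM1 passed through Huh7 only, and IRF7 through Hep3B only. The 1.03 is therefore no independent support for a gap. GBP2 had the widest gap, 15.5 times higher in Huh7, followed by IFIT5 at 8.93, HERC5 at 8.46, HERC6 at 7.58 and IFIT1, at 46.5 against 13.7, at 3.39. IRF7 was 4.18 times higher in Hep3B. For HERC5, HERC6, IFIT1 and IFIT5 the Hep3B signal was under 17.3, as was that of IRF7 in Huh7, so the sizes of these gaps are uncertain.

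Tested over both treatments by limma with Benjamini-Hochberg adjustment, 9 of the 38 genes (23.7%) were higher in Huh7 at an adjusted p under 0.05, and 3 (7.89%) were higher in Hep3B, where 12.2% of all genes were called in each direction. Higher in Huh7 were GBP2, HERC5, IFIT5, IFI6, IFI35, HERC6, IFIT1, UBE2L6 and IFITM1, and higher in Hep3B were IRF7, IFIH1 and USP18. On the log2(intensity + 16) scale the difference of GBP2 was 3.24 ± 0.07 (SE), adjusted p 0.0105, that of HERC5 2.29 ± 0.19, adjusted p 0.0191, and that of IRF7 -1.28 ± 0.10, adjusted p 0.0179, Huh7 over Hep3B. These p-values compare 2 arrays of 1 culture line with 2 of the other, which are not independent lines, and say nothing of other HCC lines. With an offset of 64 in place of 16 only 3 and 1 of the 38 were called, IFIT1, UBE2L6 and GBP2 in Huh7 and IRF7 in Hep3B. Of all 19775 genes 1253 were called higher in Huh7 and 1265 in Hep3B at this offset.

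With ATO the gap between the lines was smaller for ISG15, ISG20, IFI35, UBE2L6 and TAP1 and wider for HERC5 and IFIT1. On the ATO arrays 7 of the 38 genes were over 2-fold higher in Huh7 and 4 over 2-fold higher in Hep3B, where 7.77% and 8.61% of all genes were. ISG15 went from 2.34 times higher in Huh7 to 1.43 times, ISG20 from 3.20 to 1.75, IFI35 from 3.11 to 1.96, UBE2L6 from 2.52 to 1.84 and TAP1 from 2.89 to 1.48. HERC5 and IFIT1 widened, from 8.46 to 14.8 and from 3.39 to 4.02, but both were under 17.3 on both Hep3B arrays, so these changes are uncertain. PARP14 and PARP9, alike in both lines without ATO, were 0.338 and 0.566 times as bright in Huh7 as in Hep3B with it. Over the 38 genes as a whole the gap was smaller with ATO for 19, and over all genes for 51.8%. The ratios in Hep3B, the gap without ATO and its change with ATO all use the same negative control array of Hep3B. They are therefore not independent results, and the part of that array in them was not tested.

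**Figure D3:**
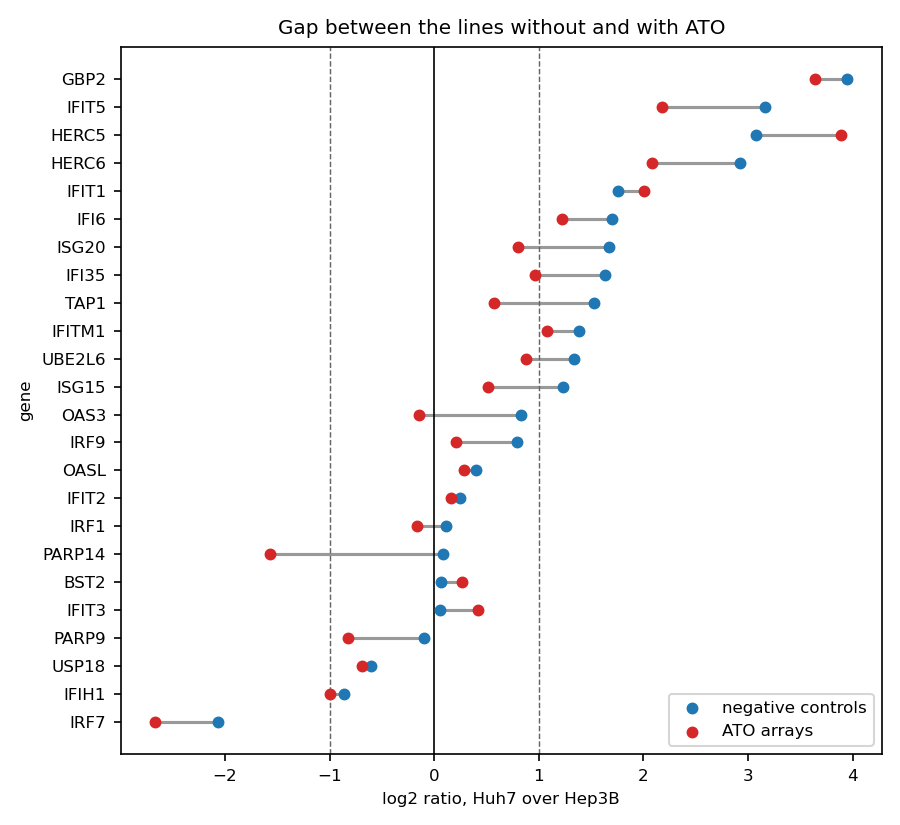
Log2 ratio of Huh7 over Hep3B (x axis) for the 24 interferon-stimulated genes that were not dim, with blue points for the negative control arrays and red points for the ATO arrays. Dashed lines mark 2-fold. Red points lie closer to 0 than blue ones for ISG15, ISG20, TAP1, IFI35 and UBE2L6 and farther from 0 for HERC5, PARP14, PARP9 and IRF7.

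The genes upstream of this response were measured with 6 lists of 99 other interferon pathway genes, of which 92 were analysed here. All 8 interferon genes measured, among them IFNB1, IFNG and IFNL1, were dim, between 2.91 and 8.78, and none was past a threshold. Of 9 receptor and kinase genes, 1 was above 1.5 in Huh7 and none in Hep3B, where 3.21% and 5.04% of all genes were. This was IFNGR1, the ligand-binding chain of the interferon-γ receptor, at 299 and 453 in Huh7 and 365 and 501 in Hep3B, ratios of 1.51 and 1.37. IFNAR2 of the type I receptor, at 468 and 542 in Huh7 and at 185 and 263 in Hep3B, had ratios of 1.16 and 1.42. The kinase JAK1, by the probe set used, was at 1615 and 2027 in Huh7 and at 721 and 904 in Hep3B, a ratio of 1.255 in each line. The study reported lower JAK1 mRNA with ATO by RT-qPCR and lower JAK1 protein by western blot, neither of which was analysed here. It also stated that the RT-qPCR matched its microarray data well. In the deposited values the JAK1 probe set used was higher with ATO in both lines, which is the opposite direction. The reason for this difference was not tested. Among 17 sensors, adaptors and IRFs, 1 was above 1.5, the dim TLR3 in Hep3B, and none of 8 negative regulators such as SOCS1 and PTPN2 was past a threshold in either line.

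Antigen presentation genes had the highest share above 1.5 in Hep3B among the 6 lists. Of 15 measured, 6 were above 1.5 in Hep3B (40.0%) and 1 in Huh7 (6.67%), where 5.04% and 3.21% of all genes were, and none was below 0.67 in either. TAP2, the partner of TAP1 in the peptide pump, was at 76.7 and 98.8 in Huh7 and at 28.6 and 60.9 in Hep3B, ratios of 1.29 and 2.13. TAPBP, which joins the pump to MHC class I, had ratios of 1.07 and 1.67, and PSMB10, an immunoproteasome subunit, of 0.997 and 1.73. The other immunoproteasome subunits PSMB9 and PSMB8 were dim. PSMB9, at 11.7 and 21.5 in Huh7 and 7.07 and 13.9 in Hep3B, was above 1.5 in both lines, with ratios of 1.84 and 1.96, and PSMB8 had ratios of 1.29 and 1.65. HLA-B, whose probe set is of the _x_at type, had ratios of 0.985 and 1.56, B2M, the light chain of MHC class I, of 0.986 and 0.716, and NLRC5, the dim transactivator of these genes, of 1.02 and 1.39. Over the 15 genes the median of the log2 ratio was 0.52 in Hep3B and 0.08 in Huh7.

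Of 35 other interferon-stimulated genes, 6 were above 1.5 in Hep3B (17.1%) and 3 in Huh7 (8.57%), where 5.04% and 3.21% of all genes were, and CXCL10 was below 0.67 in Hep3B. SP100, a component of PML nuclear bodies, was above 1.5 in both lines, at 56.0 and 99.6 in Huh7 and at 107 and 206 in Hep3B, ratios of 1.78 and 1.93. CXCL10, a chemokine that both interferons and NF-kB signaling induce, was at 145 in the Hep3B negative control and 29.9 with ATO, a ratio of 0.206, and at 8.97 and 6.91 in Huh7. This is the opposite direction from ISG15, TAP1 and PARP14 on the same arrays. TRIM14 had ratios of 0.977 and 2.31, SP110, read from a probe set ending in _x_at, 1.08 and 1.83, and DTX3L, which forms a complex with PARP9, 1.31 and 1.57. None of the 92 genes had an adjusted p under 0.05 from limma. At an unadjusted p under 0.05, 3 of 9 receptor and kinase genes, 2 of 17 sensors and adaptors, 2 of 15 antigen presentation genes and 4 of 35 other interferon-stimulated genes were higher with ATO, and none was lower, where 5.24% of all genes were higher and 4.3% lower.

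**Figure D4:**
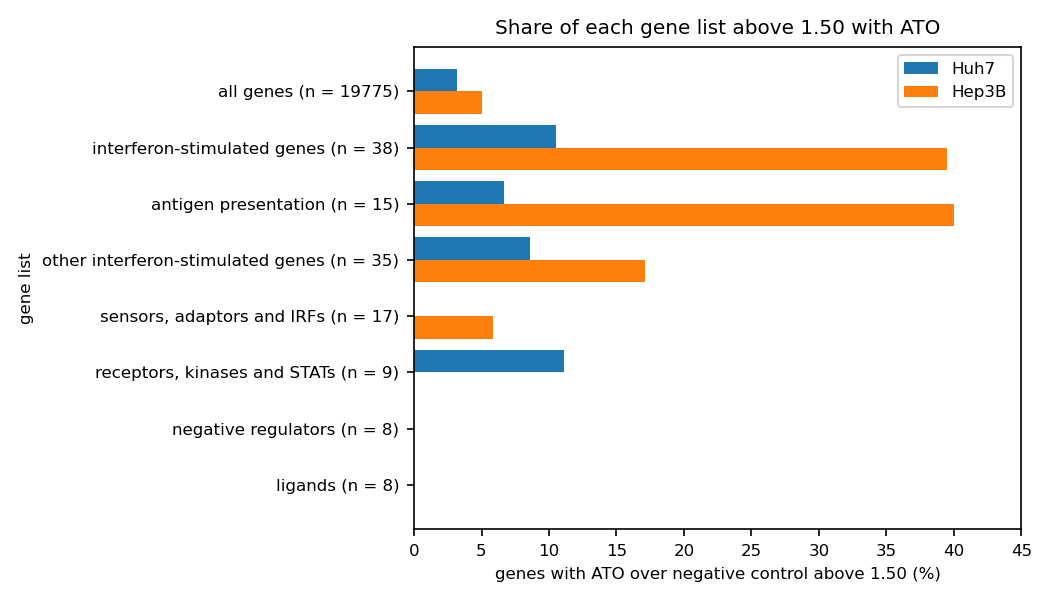
Share of genes with a ratio of ATO over negative control above 1.5 (x axis, %) in Huh7 (blue) and Hep3B (orange), for all genes, the interferon-stimulated genes and the 6 pathway lists. In Hep3B the interferon-stimulated genes (39.5%) and antigen presentation genes (40.0%) stand beside 5.04% of all genes, and no bar is drawn where no gene passed.

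Some of these genes are neighbors in the genome (RefSeq, GRCh38.p14). TAP1 (chr6:32845209-32853704) and PSMB9 (chr6:32854192-32859851) lie head to head. The TAP1 stretch printed above, with its overlapping matches to the core of the response element, lies between their starts. TAP2 (chr6:32821831-32838739) and PSMB8 (chr6:32840717-32844679) are in the same part of the MHC region, and all 4 genes had a ratio above 1.5 in Hep3B. PARP9 (chr3:122527924-122564784) and DTX3L (chr3:122564338-122575203) overlap at their starts, where the PARP9 stretch lies, and PARP14 (chr3:122680839-122730840) is close by. All 3 were above 1.5 in Hep3B and none in Huh7. The GBP genes on chromosome 1 were less alike, since GBP3 (chr1:89006680-89022866) was at 22.1 without and 84.1 with ATO in Huh7, a ratio of 3.81, and at 3.86 and 3.70 in Hep3B. Among the IFIT genes of chromosome 10, ratios above 1.5 were found at low signals, those of IFIT5 in Hep3B and of the second IFIT3 probe set in both lines.

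Ratios above 1.5 were found among genes with and without a match to the response element core. Of the 23 genes with the core in a window, 10 were above 1.5 in Hep3B and 2 in Huh7, and of the 7 measured genes whose windows lack it, 4 and 2 were. Outside the 38 genes, 43 of 590 genes with the core (7.29%) were above 1.5 in Hep3B, against 756 of 14764 genes without it (5.12%). The shares in Huh7 were 2.88% with and 3.1% without the core. These are descriptions of shares with no test, and a window of 300 bases does not hold all regulatory sequence of a gene.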

How the data were processed

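Total RNA was extracted with Trizol, labeled with biotin and hybridized to U133 Plus 2.0 arrays. Per the methods, the authors used simpleaffy, with RMA preprocessing, a log transform and quartile normalization. The deposited values are intensities on a linear scale, 2.24 to 14163.5 over 54675 probe sets, with array medians of 15.8 to 16.3. How they were returned to that scale is not given in the sources used here, nor is whether several arrays were averaged in a column.

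Of the probe sets, 41097 had 1 gene symbol in the platform annotation, 1801 several and 11777 none listed. The brightest of a gene's probe sets was used, and 3 older symbols of the pathway lists were matched through RefSeq synonyms. Ratios were taken on the deposited values. limma 3.58.1 (R 4.3.3) was fitted to log2(intensity + 16) with Benjamini-Hochberg adjustment over all 19775 genes, its prior having 1.81 degrees of freedom. Its steps were tested on simulated data. Results and plots were made with Python 3.11.15, pandas 2.3.3 and matplotlib 3.10.9. The genes and lists were chosen with earlier results of these data known. Intensities on all 4 arrays are given for genes that were not dim and were past 1.50 or 0.67 in a line. They are also given for the IRF genes and for the 6 genes with the widest gap between negative controls among those not dim. Other genes given in full were chosen after their values were seen. Motifs were searched in RefSeq windows of 300 bases. RT-qPCR, protein and animal experiments were not analysed here.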

Additional observations from a re-analysis of the deposited data

How the results depend on the processing

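The 4 genes above 1.5 in Huh7 became 2 when probe sets of a gene were averaged and 2 with dim genes left out, and those above in both lines became 1 under either, and 1 without the _x_at probe sets. In Hep3B the 15 genes above 1.5 became 11 with averaged probe sets and 12 with dim genes left out. With thresholds of 2 and 0.5, 1 was above in Huh7, 5 in Hep3B and 1 in both, and with a 4-fold threshold 4 were higher in Huh7 on the negative control arrays. The median log2 gap between negative controls was 0.19 with quantile normalization and 1.03 with dim genes left out, a filter that genes bright in Huh7 only can pass. The median over the genes of the mean log2 ratio of the lines lay between 0.06 and 0.36 with 1 line left out, 0.06 being Huh7 alone and 0.36 Hep3B alone. For ATO, the genes higher at an unadjusted p under 0.05 were 3 with the mean of probe sets, 10 with no offset, 3 with no replicate block (the line left out of the model) and 1 by the methods' t-test, instead of 5. No setting gave an adjusted p under 0.05 for ATO to any of the 38 genes, their smallest by limma lying between 0.0883 with no offset and 1.0 with no replicate block. Over all genes, limma called 7 higher and 2 lower at that level with an intensity trend, 5 and 3 with no offset and 1 and 2 with dim genes left out. Between the lines, the genes higher in Hep3B at an unadjusted limma p under 0.05 were 6 with no offset and 6 with an intensity trend, instead of 3. At an adjusted p under 0.05 an offset of 64 left 3 of the 38 higher in Huh7 and 1 in Hep3B, where 1253 and 1265 of 19775 genes were. With treatment left out of the model, IFI35 and UBE2L6 lost their call. Shares of all genes were not counted at the other thresholds, with averaged or fewer probe sets, or at an unadjusted p in the other settings. Such counts of the 38 genes therefore cannot be read as an excess. For single genes 160 values were recomputed. Leaving out dim genes or _x_at probe sets could not move them, since these genes were not dim and were read from other probe sets. Averaging could not move IFI35, ISG15, IRF9, BST2, UBE2L6, TAP1, HERC5, IRF7 and IFIT1, which have 1 probe set each. Many of the 160 values were thus fixed in advance, and their count does not measure stability. The yardstick was the SD between the lines (ratios) or between the treatments (gaps). It widens with the difference between the lines or treatments itself and measures no error. Of the 160 values 157 moved by no more than that SD, and 3 moved further, all with averaged probe sets. These were the log2 ratios of GBP2, at -0.17 in Huh7, where its sign turned, and 0.41 in Hep3B, and the log2 gap of HERC6, at 1.54. Within that SD, but by over 1.5 times in size, 3 log2 ratios in Hep3B fell with averaged probe sets. PARP14 went from 1.96 to 0.95, OAS3 from 0.84 to 0.42 and HERC6 from 0.67 to 0.28. Some small log2 ratios in Huh7 also changed by over 1.5 times or in sign, such as that of OAS3, from -0.13 to 0.03. The labels give no replicate numbers, and the line pairs the arrays. The cause of these shifts was not tested. Signals under 17.3 on average limit the ratios of the 14 dim genes. Of the 38 genes, 19 had both Hep3B arrays and 23 both Huh7 arrays at or above 17.3. Ratios of some genes that were not dim, such as IFIT5 and HERC6 in Hep3B, are therefore limited too.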

Other observations

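Between the negative controls, some genes of the pathway lists, chosen after their values were seen, differed too. MYD88, the adaptor of Toll-like receptors, had intensities of 35.8 (Huh7) and 313 (Hep3B), and limma called it over both treatments (log2 difference of Huh7 over Hep3B -2.96 ± 0.18 (SE), adjusted p 0.0150). LGALS3BP, a secreted glycoprotein, was at 127 and 671, and with ATO at 257 and 795, ratios of 2.02 and 1.18 (log2 difference between the lines -1.92 ± 0.22 (SE), adjusted p 0.0272 by limma). DTX3L, the partner of PARP9, was at 60.7 and 170 (adjusted p 0.0176 by limma), whereas PARP9 itself was alike in both lines without ATO.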
